A study of Bos taurus with 8 samples.

Results

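The liver of a near-term fetus makes both the plasma proteins of the fetus and those of the adult, and the genes of 10 of them were examined: AFP, ALB, AHSG, FETUB, TF, TTR, GC, RBP4, SERPINA1 and A1BG. A probe of the array belonged to one of these genes when the transcript accession that the scanner files give for it is listed for that gene, and 38 probes did. They are 38 of 33439 detected probes, and the 10 genes are among 10860 genes with a detected probe. Liver RNA came from Japanese Black cattle fetuses at 8.5 months post-conception, 4 whose dams received 60% of the nutritional requirement during gestation (LN group: L5, L6, L8 and L9) and 4 whose dams received 120% (HN group: L1, L2, L3 and L10). By the study's methods the lightest LN fetuses and the heaviest HN fetuses of the experiment were taken, so the groups do not stand for all fetuses of each diet, and no group on the full requirement was among the arrays. The labels give 1 fetus per array, whereas the series' general description speaks of RNA pooled for each treatment, and each array is taken here as 1 fetus. The question was whether maternal undernutrition changed the messages of these liver products.

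As background, AFP is the main plasma protein of early fetal life and ALB its counterpart after birth, and both belong to one gene family with AFM and GC. Mammalian liver silences AFP around birth while ALB stays high, so the pair is commonly read as a marker of liver maturation. AHSG and FETUB are fetuins, and AHSG is an abundant protein of fetal bovine serum. TF, TTR, GC and RBP4 carry iron, thyroid hormone, vitamin D and retinol, SERPINA1 inhibits neutrophil elastase, and A1BG is a plasma glycoprotein of the immunoglobulin fold. In the reference table AFP is the next coding gene to ALB and AFM the next to AFP, with 4 coding genes between ALB and GC, and AHSG, FETUB, HRG and KNG1 follow one another likewise. No coordinates are given, because the array was designed on another build than that table, and no probe sequence is shown, because none was analysed here.

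None of the 10 genes differed between LN and HN beyond the spread between fetuses, and that spread was itself unequal. By brightest probe AFP varied 2.59-fold over the 8 fetuses, FETUB 1.76-fold, RBP4 1.59-fold and A1BG 1.57-fold, while ALB, TTR, TF, GC, SERPINA1 and AHSG stayed within 1.15-fold. Some other probes of the last 6 genes varied more, by up to 1.66-fold for AHSG and 1.53-fold for TF. By limma with Benjamini-Hochberg adjustment, 0 of the 38 probes passed an adjusted p of 0.05, as did 0% of all detected probes. At an unadjusted p of 0.05 the count was also 0 of 38 by limma, beside 6.32% of detected probes, and 0 of 38 by the methods' t-test, which they name for other data, beside 6.83% of detected probes. For 0 of the 10 genes were the LN and HN values without overlap, beside 4.14% of the genes of the array, and the groups overlapped for each of the 38 probes. By brightest probe, 7 genes had the higher mean in LN and 3 the lower, and their median log2 difference was 0.0058 beside 0.0075 over the 10860 genes. All values are log2 signals of a probe after quantile normalization between arrays, and since a probe's signal depends on its own sequence, levels are compared between fetuses and not between genes. By brightest probe the 95% intervals reached between 0.22 and 0.83 to each side of the difference on the log2 scale. Dimmer probes could be wider, with -0.59 to 1.78 for AFP probe A_73_P254126. These intervals are not adjusted for the number of probes, so they do not set the smallest difference that the adjusted test could find. With 8 arrays, a gene that did not pass may still have differed.

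The LN arrays shared 1 slide and the HN arrays another, so a difference between slides or scans and one between groups cannot be told apart. Of 43803 spots per array, 32635 to 33371 in LN and 33254 to 34369 in HN were well above background. Every one of the 38 probes exceeded background on each of the 8 arrays, with 0 saturated spots. The 75th percentile of log2 signal before normalization ran in LN from 8.997 in fetus L6 and 9.05 in L9 to 9.72 in L5, with 9.17 to 9.62 in HN. Of 13 hepatocyte markers 12 had a matched probe and were detected (APOB had none). In LN 4 were higher and 8 lower, with a median log2 difference of -0.041. A summed signal, here and below, is the log2 of the signals added over a list, so the brightest markers weigh most. That of the hepatocyte markers lay between 20.61 and 20.76 in LN and between 20.63 and 20.88 in HN. In such whole tissue, fewer cells of a type and less RNA per cell cannot be told apart.

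**Figure D1:**
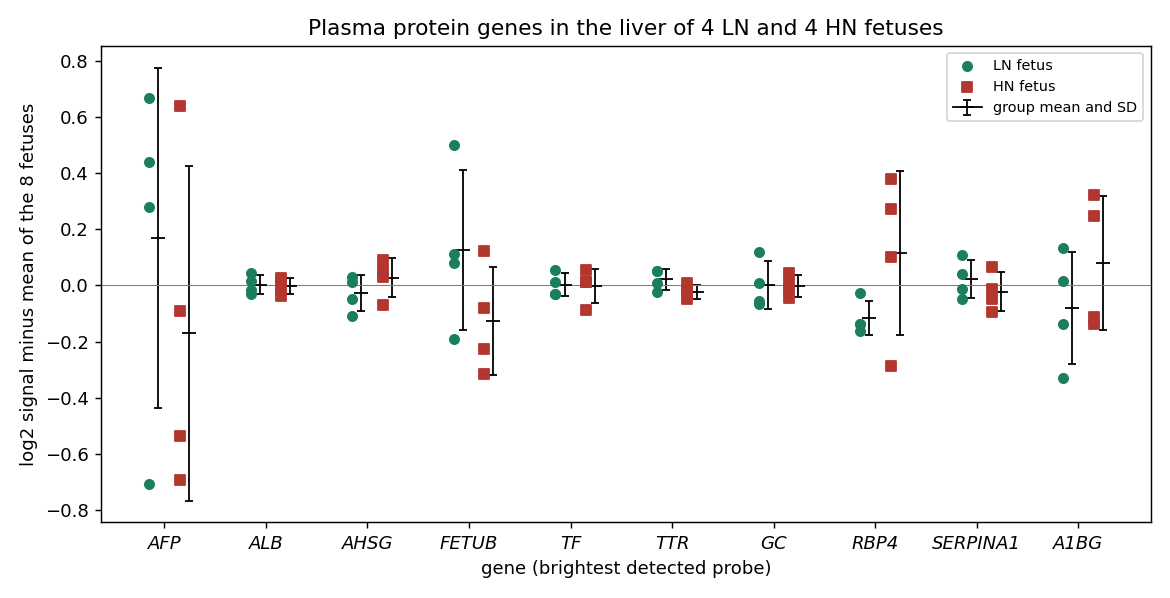
The vertical axis gives the log2 signal of the brightest detected probe of each gene, minus its mean over the 8 fetuses. Circles are LN fetuses, squares are HN fetuses, and bars give the group mean and SD (n = 4 each). AFP spreads over 1.38 log2 units in total and ALB over 0.081, and the groups overlap for all 10 genes.

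AFP (NM_001034262), the fetal albumin, had 6 probes. By the brightest, A_73_113968, the log2 signal was 17.47, 17.24, 16.09 and 17.08 in LN fetuses L5, L6, L8 and L9, and 16.27, 17.44, 16.11 and 16.71 in HN fetuses L1, L2, L3 and L10. The highest and the lowest fetuses of the 2 groups lay at almost the same levels, with LN fetus L8 among the lowest and HN fetus L2 among the highest. The LN mean was 16.97 ± 0.61 and the HN mean 16.63 ± 0.60 (SD, n = 4 each), a log2 difference of 0.34 (limma adjusted p = 0.893, standard error (SE) 0.36, exact permutation p = 0.429). The difference was thus smaller than either SD. When each fetus was left out it ran from 0.17 without HN fetus L3 to 0.63 without LN fetus L8.

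The other AFP probes ordered the fetuses in nearly the same way. On 6 of 6 probes the 3 lowest fetuses were L8, L1 and L3, and the 4 highest were L5, L6, L9 and L2, so that each set held fetuses of both groups. By the dimmest, A_73_P254126, the log2 signal was 13.66, 13.24, 11.76 and 13.07 in LN fetuses L5, L6, L8 and L9, and 11.94, 13.45, 11.29 and 12.68 in HN fetuses L1, L2, L3 and L10. The range over the 8 fetuses was 5.17-fold, from L3 to L5, beside 2.59-fold by the brightest, from L8 to L5. Pearson's r between probes over the 8 fetuses ran from 0.86 to 1.00 (0.9996), and all were read from the same 8 RNA samples. Whether any of these probes cover the same stretch of the transcript is not known here. On all 6 probes the LN mean was the higher, by 0.34 to 0.59, with exact permutation p from 0.343 to 0.514 and limma adjusted p from 0.865 to 0.903. In processed intensity before normalization, the brightest AFP probe ran from 63387 in HN fetus L3 to 204911 in LN fetus L5, so the spread was present in the scanner values.

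**Figure D2:**
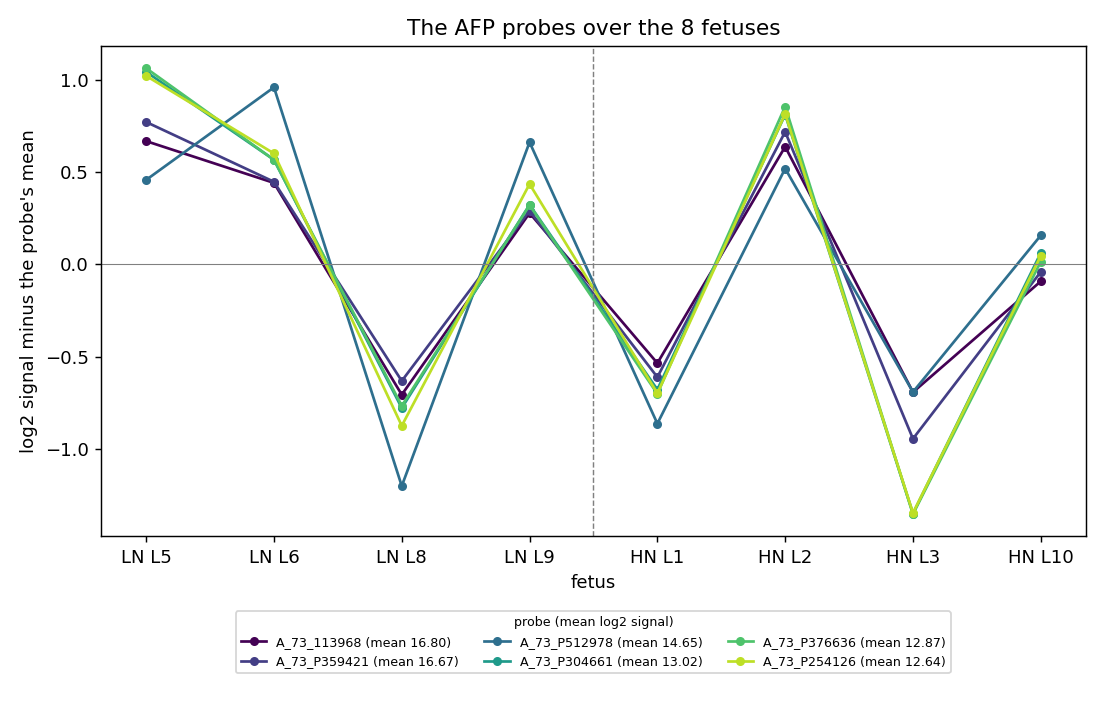
The vertical axis gives the log2 signal of each of the 6 AFP probes minus that probe's mean, for the 4 LN fetuses (left of the dashed line) and the 4 HN fetuses (right). Lines join the points of one probe and imply no order of the fetuses. All 6 probes are low in L8, L1 and L3 and high in L5, L6, L9 and L2.

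ALB (NM_180992), the main carrier protein of adult plasma, had 4 probes and stood at the other end. By the brightest, A_73_P036711, the log2 signal was 17.83, 17.86, 17.81 and 17.89 in LN fetuses L5, L6, L8 and L9, and 17.81, 17.87, 17.83 and 17.86 in HN fetuses L1, L2, L3 and L10. The groups lay over the same narrow range, and the SD over the 8 fetuses was 0.029. Among 10860 genes by brightest probe, 1 gene had an SD at or below this value, which was ALB itself. That place held after quantile normalization: without it the SD of ALB was 0.068, above the 0.067 of AHSG and the 0.044 of SERPINA1. By quantile normalized values 8.78% of genes had an SD at or above the 0.59 of AFP, and the median gene had 0.24. The log2 difference of ALB was 0.0066 (95% interval -0.21 to 0.22 by limma, limma adjusted p = 0.993, exact permutation p = 0.80). limma's standard error of 0.096 draws on the spread of all probes and is wider than the spread of ALB. Of the other ALB probes all 3 were lower in LN, with differences of -0.067 to -0.0082, with exact permutation p from 0.371 to 0.886. Their SDs over the fetuses, 0.093 to 0.11, were larger than that of the brightest.

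The log2 ratio of AFP to ALB within each array gives 1 value per fetus, of which only differences between fetuses can be read. By the brightest probes it was -0.36, -0.62, -1.72 and -0.81 in LN fetuses L5, L6, L8 and L9, and -1.54, -0.43, -1.72 and -1.15 in HN fetuses L1, L2, L3 and L10. The ratio was high in L5 and L2 and low in L8 and L3, 1 of each group in each pair. The means were -0.88 ± 0.59 in LN and -1.21 ± 0.57 in HN (SD, n = 4 each), a difference of 0.33 (exact permutation p = 0.457, 2-sided). With the dimmest probes of both genes, an alternative chosen after the data were seen, the difference was 0.66 (exact permutation p = 0.314). With 4 fetuses against 4 the smallest p of this test is 0.0286. The widest gap between fetuses, 2.57-fold, lay between L5 and L8, both LN.

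The fetuins came next, and the 7 probes of AHSG (NM_173984) did not order the fetuses alike. By the brightest, A_73_P283836, the log2 signal was 18.18, 18.32, 18.24 and 18.30 in LN fetuses L5, L6, L8 and L9, and 18.32, 18.22, 18.35 and 18.38 in HN fetuses L1, L2, L3 and L10. These overlapped, with a log2 difference of -0.055 (limma adjusted p = 0.943, SE 0.10, exact permutation p = 0.286), and -0.088 without HN fetus L2 or -0.028 without LN fetus L5. A further probe, A_73_P252786, had 18.32, 17.69, 18.27 and 17.80 in the same LN fetuses and 18.15, 18.24, 17.59 and 18.08 in the same HN fetuses. There L6, L9 and L3 were low and the other 5 fetuses high, which put both groups on both sides. Taken after the values were seen and as a description only, 4 AHSG probes with an SD of at least 0.1 showed this pattern, and 3 narrower probes did not. The mean of the 4 wide probes was 17.83 in L6, 17.85 in L9 and 17.70 in L3 against 18.09 to 18.27 in the other fetuses, while the mean of the 3 narrow ones lay between 17.82 and 18.01 in all 8. The wide mean minus the narrow mean ran from -0.32 in L3 to 0.45 in L5, and it averaged 0.12 in LN and 0.070 in HN. The low place of L6, L9 and L3 was not particular to AHSG. On TF probe A_73_P459726 they were the lowest fetuses, at 15.01, 15.09 and 15.13 against 15.44 to 15.61 in the others. They were also the lowest on TF probe A_73_P252936, but not on the dimmest TF probe. L6 and L9 also had the lowest 75th percentiles of the 8 arrays, and the part of array brightness in this pattern was not tested. Over the 7 probes the LN minus HN difference ran from -0.067 to 0.026, with 3 higher and 4 lower.

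**Figure D3:**
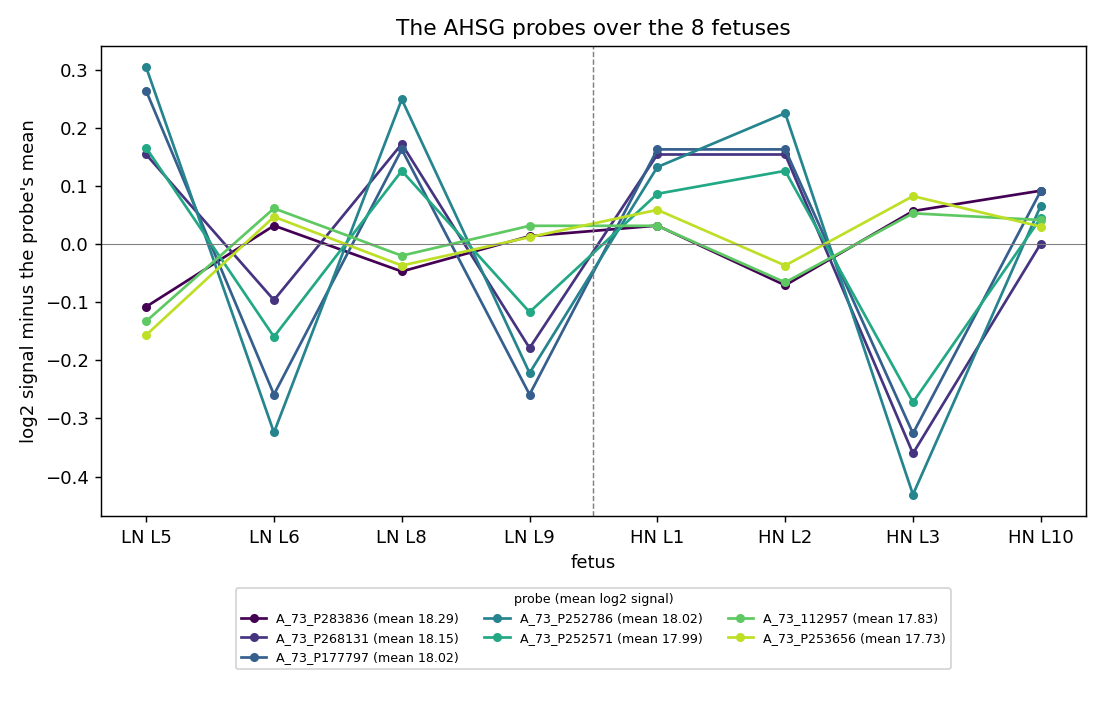
The vertical axis gives the log2 signal of each of the 7 AHSG probes minus that probe's mean, for the LN fetuses (left of the dashed line) and the HN fetuses (right), with lines joining the points of one probe. In 4 probes L6, L9 and L3 are low, the widest of them ranging over 0.74 log2 units, and the other 3 probes range over at most 0.24.

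FETUB (NM_001034218), the neighbour and relative of AHSG, was higher in LN on all 4 of its probes. By the brightest, A_73_P044856, the log2 signal was 17.78, 17.09, 17.36 and 17.39 in LN fetuses L5, L6, L8 and L9, and 17.19, 16.96, 17.40 and 17.05 in HN fetuses L1, L2, L3 and L10. LN fetus L5 stood above all others, and the remaining LN fetuses lay among the HN fetuses. The log2 difference was 0.25 (limma adjusted p = 0.830, SE 0.17, exact permutation p = 0.229), and 0.13 without L5. By the dimmest, A_73_P252921, the log2 difference was 0.50 (limma adjusted p = 0.826, exact permutation p = 0.257). There L5, L8 and L9, at 15.86, 14.96 and 14.67, lay above the HN fetuses at 14.29 to 14.49. L6 lay below them, at 14.06. On A_73_P264646 L5, L8 and L9 likewise lay above every HN fetus, at 16.44, 15.56 and 15.44 against at most 15.33. L6 was again the lowest, at 14.95. On A_73_P377171 only L5 lay above every HN fetus. L5 also had the highest summed signal of erythroid markers, 18.20 against 14.87 to 15.58 in the other LN fetuses and 13.47 to 16.22 in HN, and the highest 75th percentile. Their part in the FETUB value was not tested. The coding genes that follow FETUB in the reference table, HRG and KNG1, are plasma proteins with cystatin-type parts as the fetuins are, and are given for their position outside the naming rule. HRG was 12.12 to 13.39 in LN and 12.57 to 13.78 in HN, and KNG1 15.89 to 16.32 and 15.79 to 16.50. L5 was not their highest fetus, with 12.30 for HRG and 15.90 for KNG1.

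The carriers of iron, thyroid hormone and vitamin D also varied little by their brightest probes, with SDs over the fetuses of 0.037 for TTR, 0.048 for TF and 0.061 for GC. TTR (NM_173967), which carries thyroid hormone and binds RBP4, had log2 signals of 18.42, 18.35, 18.38 and 18.42 in LN fetuses L5, L6, L8 and L9, and 18.35, 18.35, 18.38 and 18.32 in HN fetuses L1, L2, L3 and L10. LN fetuses L5 and L9 were the highest by a small margin, and the other LN fetuses lay within the HN range. The log2 difference was 0.044 (95% interval -0.17 to 0.26, limma adjusted p = 0.951, exact permutation p = 0.200), and 0.041 by its other probe.

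TF (NM_177484), the iron carrier, had 6 probes. By the brightest, A_73_109609, it lay between 18.38 and 18.47 in LN and between 18.32 and 18.47 in HN, a log2 difference of 0.0049 (limma adjusted p = 0.995, exact permutation p = 0.943). The LN range thus lay inside that of HN. On the dimmest, A_73_P267581, the log2 signal was 13.46, 13.38, 13.70 and 13.47 in LN fetuses L5, L6, L8 and L9, and 13.50, 13.65, 13.57 and 13.99 in HN fetuses L1, L2, L3 and L10. LN was there 0.18 lower (limma adjusted p = 0.854, exact permutation p = 0.257), with L8 above every HN fetus but L10. Of the 6 TF probes, 2 were higher and 4 lower in LN, so the direction depended on the probe.

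GC (NM_001035380), the vitamin D carrier, was higher in LN on all 3 probes, by 0.0047, 0.032 and 0.14 on the log2 scale. By the brightest, A_73_104001, the log2 signal was 18.05, 17.94, 17.87 and 17.88 in LN fetuses L5, L6, L8 and L9, and 17.94, 17.98, 17.92 and 17.89 in HN fetuses L1, L2, L3 and L10. L5 was again the highest fetus, and without it the LN mean was 0.034 below the HN mean. Exact permutation p ran from 0.229 to 0.943 over the probes, and limma adjusted p from 0.873 to 0.995.

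RBP4 (NM_001040475), which carries retinol from the liver in a complex with TTR, was lower in LN on both probes and came closest to a separation of the groups. By A_73_117622 the log2 signal was 15.60, 15.62, 15.62 and 15.74 in LN fetuses L5, L6, L8 and L9, and 15.86, 16.03, 15.48 and 16.14 in HN fetuses L1, L2, L3 and L10. The LN fetuses were close together, 3 HN fetuses lay above all of them, and HN fetus L3 lay below all of them. By A_73_P347541 the values were 12.17, 12.64, 12.48 and 12.52 in LN and 12.55, 12.73, 12.72 and 13.09 in HN, in the same order of fetuses. There only LN fetus L6 lay above an HN fetus, L1. The log2 differences were -0.23 (limma adjusted p = 0.83, SE 0.16, exact permutation p = 0.200) and -0.32 (limma adjusted p = 0.787, SE 0.16, exact permutation p = 0.0571). Neither passed the adjusted threshold, and the second had the lowest unadjusted limma p of the 38 probes, 0.0705, before adjustment over all detected probes. When each fetus was left out, the first ran from -0.37 without HN fetus L3 to -0.14 without HN fetus L10.

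SERPINA1 (NM_173882), the inhibitor of neutrophil elastase, was higher in LN on all 3 probes, by 0.044 to 0.078. By the brightest, A_73_P304436, the log2 signal was 17.96, 17.99, 18.05 and 18.11 in LN fetuses L5, L6, L8 and L9, and 17.96, 17.91, 18.07 and 17.99 in HN fetuses L1, L2, L3 and L10. The groups overlapped almost entirely, and the log2 difference was 0.044 (95% interval -0.19 to 0.28, limma adjusted p = 0.953, exact permutation p = 0.429). It ran from 0.016 without LN fetus L9 to 0.074 without HN fetus L3. The enzyme that it inhibits, ELANE, a protease of neutrophil precursors, is described with the receptors and partners below.

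A1BG (NM_001046243), a glycoprotein of adult plasma, had 1 probe. Its log2 signal was 16.18, 16.37, 16.64 and 16.53 in LN fetuses L5, L6, L8 and L9, and 16.83, 16.40, 16.37 and 16.76 in HN fetuses L1, L2, L3 and L10. HN fetuses L1 and L10 were the highest and LN fetus L5 the lowest, with the others mixed. The log2 difference was -0.16 (limma adjusted p = 0.886, SE 0.16, exact permutation p = 0.371), and it ran from -0.23 without HN fetus L3 to -0.076 without LN fetus L5.

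**Figure D4:**
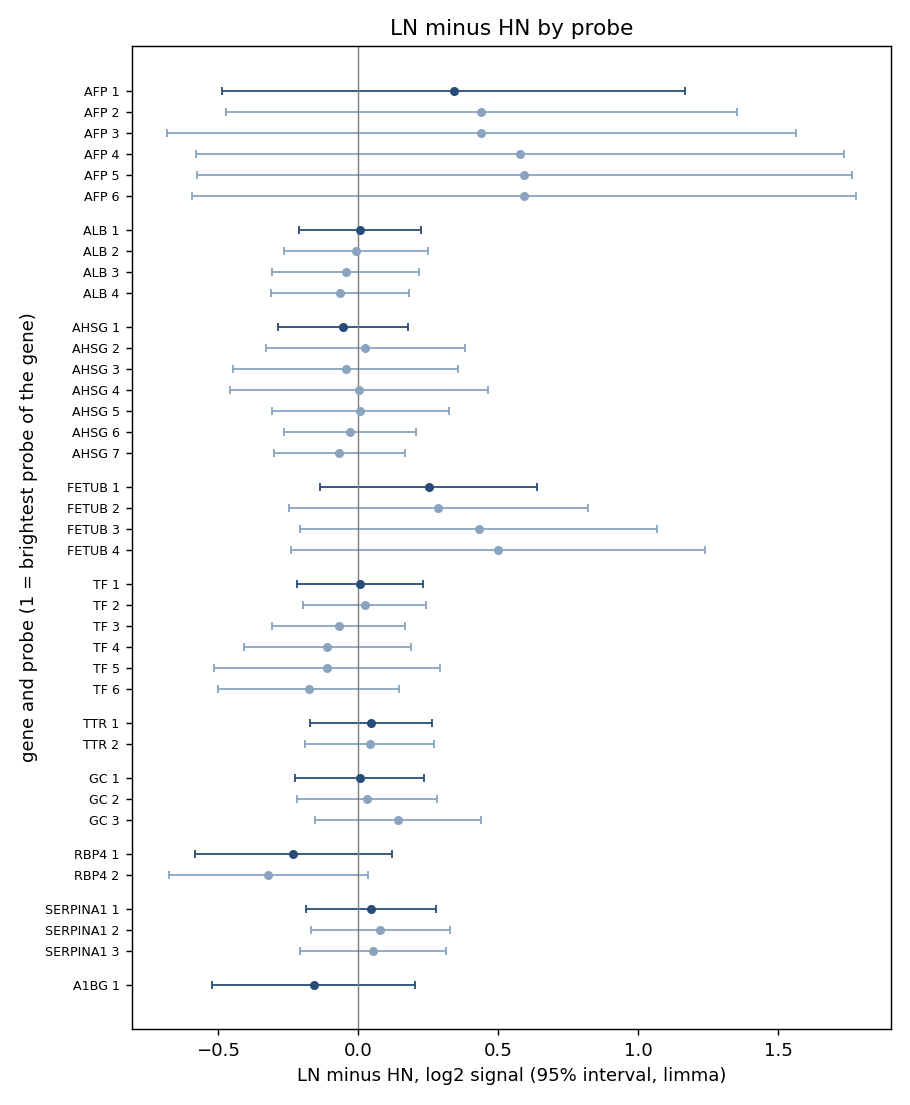
The horizontal axis gives the LN minus HN difference in log2 signal for each of the 38 probes with its 95% interval by limma (4 LN and 4 HN fetuses), and the vertical axis lists genes, with 1 as the brightest probe of a gene (dark). Every interval includes 0, and the AFP probes have the widest.

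Over the 10 genes, 24 probes had the higher mean in LN and 14 the lower. In 6 of the 9 genes with more than 1 probe all probes of the gene had one direction. The spread between fetuses went with the brightness of the probe. In 9 of these 9 genes the dimmest probe varied more than the brightest, from 1.12 times the SD in AHSG to 4.01 times in TF, and in 8 of 9 without normalization between arrays. The brightest spike-in control of the arrays had a mean log2 signal of 17.22. The 18 probes above it had a median SD over the fetuses of 0.072, and the 20 at or below it 0.25, or 0.12 and 0.37 without normalization. Of all 33439 detected probes 79 lay above that control, so these 18 were a sizeable share of the brightest probes of the array. There were exceptions in both directions. The 3 ALB probes below the control had SDs of only 0.093 to 0.11, and the dimmest SERPINA1 probe 0.11, whereas the wide AHSG probes lay above it. Whether brightness narrowed the spread of any probe was not tested. AFP had 0 probes above that control and was wide over the whole range of its own, with an SD of 0.59 at a mean log2 signal of 16.80 and of 0.87 at 12.64.

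**Figure D5:**
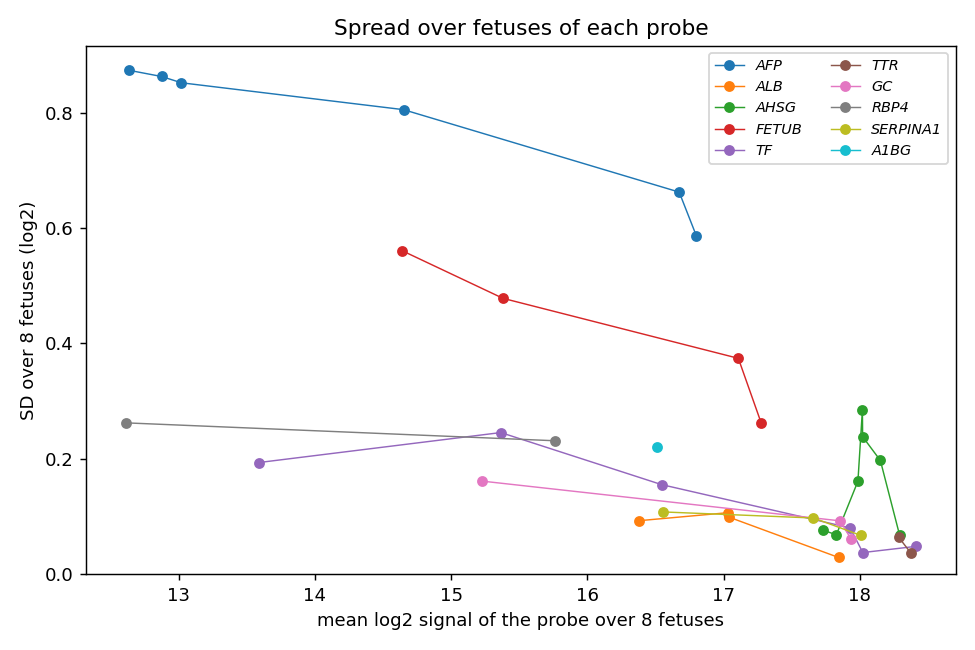
The horizontal axis gives the mean log2 signal of each of the 38 probes over the 8 fetuses and the vertical axis its SD over the fetuses, with lines joining the probes of a gene. AFP probes lie highest, between 0.59 and 0.87, FETUB probes lie between 0.26 and 0.56, and most probes above a log2 signal of 17.22 lie low.

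The 10 genes did not move as 1 set over the fetuses. As a description of values that share the same 8 RNA samples, Pearson's r between brightest probes had a median of 0.010 over the 45 pairs. It was highest for FETUB and TTR, at 0.87, and lowest for GC and SERPINA1, at -0.68. By the dimmest probes the median was -0.13, FETUB and TTR had 0.71, GC and SERPINA1 -0.065, and the lowest pair was AHSG and FETUB, at -0.89. AFP and ALB had 0.63 by their brightest probes and 0.33 by their dimmest. TTR and RBP4, whose proteins travel together, had -0.64 by their brightest probes and -0.52 by their dimmest. Many of these pairs involve genes whose whole range was at most 0.20 log2 units, where r has little to rest on.

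Among 3867 genes outside the 10 with an SD of at least 0.3, the pattern of AFP over the 8 fetuses was most like that of ATP10D, a lipid flippase of the P4 type (r = 0.91), MAGEE2, a MAGE family member (r = 0.85), and INPPL1, an inositol phosphatase of insulin signalling (r = 0.82). For ALB they were SAV1, a scaffold of the Hippo pathway (r = 0.91), CYP1B1, a cytochrome P450 (r = 0.86), and GSTM3, a glutathione transferase (r = 0.86). Some of them were dim, with log2 signals of 4.64 to 5.97 for ATP10D, 5.06 to 6.10 for SAV1 and 1.83 to 4.75 for CYP1B1. These are the highest of 3867 correlations over 8 points, and for ALB over a range of 0.081 log2 units.

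Other genes of liver secretion were counted by direction, without a test of any list. By limma, 0 genes of the 6 lists passed an adjusted p of 0.05. Of 13 detected plasma carriers outside the 10 genes, 9 were lower and 4 higher in LN, and the median difference was -0.19, and 0 had an unadjusted limma p of 0.05 or less, beside 6.05% of all genes. AFM, the neighbour of AFP and given for that position, ranged over 0.54 log2 units in the 8 fetuses, less than AFP on any of its probes. Of 16 plasma protease inhibitors 5 were higher and 11 lower, with a median of -0.096. SERPINA3-3, named after its values were seen, was the 1 of 16 with an unadjusted limma p of 0.05 or less, beside 6.05% of all genes, with a log2 difference of -0.54 (limma adjusted p = 0.785, exact permutation p = 0.0857) and overlapping groups. The median over all genes was 0.0075, with 48.4% of genes lower. Both medians moved with single fetuses, that of the carriers from -0.32 without HN fetus L2 to -0.023 without HN fetus L10, and that of the inhibitors from -0.18 without HN fetus L2 to -0.0021 without LN fetus L5.

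Transcription factors that act on the AFP and ALB genes had 7 of 16 detected members higher in LN and 9 lower, and their median difference was -0.024. That direction was not stable: the median was -0.061 without HN fetus L2, 0.014 without LN fetus L5 and 0.060 with the dimmest probe of each gene. Among them PROX1, a homeobox factor of hepatocyte development, was the only gene without overlap between the groups, 1 of 16 beside 4.14% of all genes. Its log2 signal was 9.16, 9.31, 9.30 and 9.01 in LN fetuses L5, L6, L8 and L9, and 9.66, 9.47, 9.51 and 9.65 in HN fetuses L1, L2, L3 and L10. Every LN fetus lay below every HN fetus, by a log2 difference of -0.38 (limma adjusted p = 0.760, SE 0.12, exact permutation p = 0.0286). Of 10 genes known for their expression in fetal liver and liver tumours, as AFP is, 7 were higher and 3 lower, with a median of 0.099 (0.19 without LN fetus L5) and groups that overlapped in all 10. IGF2BP1, an RNA-binding protein of fetal tissues, was the 1 of 10 with an unadjusted limma p of 0.05 or less, beside 6.05% of all genes, and is named for that, with a log2 difference of 0.46 (limma adjusted p = 0.785, exact permutation p = 0.0571).

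Receptors and partners of the 10 proteins had 7 of 16 detected genes higher in LN and 9 lower, and their median difference was -0.12, which ran from -0.18 without HN fetus L10 to -0.030 without LN fetus L8. The groups did not overlap for 3 of them, beside 4.14% of all genes. ASGR2, a subunit of the hepatocyte receptor that takes up desialylated plasma glycoproteins, had 14.23, 14.29, 14.18 and 14.29 in LN fetuses L5, L6, L8 and L9, and 14.58, 14.34, 14.52 and 14.76 in HN fetuses L1, L2, L3 and L10. That is a log2 difference of -0.30 (limma adjusted p = 0.784, exact permutation p = 0.0286), with all LN fetuses below. ELANE had 7.88, 8.55, 7.25 and 8.59 in LN and 7.17, 7.11, 7.13 and 7.22 in HN, in the same order of fetuses, a difference of 0.91 (limma adjusted p = 0.760, exact permutation p = 0.0286). VDR, the vitamin D receptor, was dim, at 5.65 to 6.11 in LN and 5.38 to 5.65 in HN, with a difference of 0.31 (limma adjusted p = 0.785, exact permutation p = 0.0286). Its groups were barely apart, with LN fetus L9 at 5.655 and HN fetus L3 at 5.651. None of the 3 passed the adjusted threshold.

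Genes for translocation into the endoplasmic reticulum and export from it, the route by which plasma proteins leave the hepatocyte, had 19 of 25 members higher in LN and 6 lower, and their median difference was 0.041. The groups overlapped in all 25, beside 4.14% of all genes without overlap, and 0 had an unadjusted limma p of 0.05 or less, beside 6.05%. Without LN fetus L6 the median was 0.10, and without normalization between arrays it was -7.87e-05.

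Markers of other cells of the fetal liver were counted in the same way. All 8 detected erythroid markers of 13 were higher in LN, by a median of 1.27 on the log2 scale, but 0 had an unadjusted limma p of 0.05 or less, beside 6.05% of all genes, and the groups overlapped for each of the 8. The summed signal was 18.20 in LN fetus L5, and the other LN fetuses, at 14.87 to 15.58, lay inside the HN range of 13.47 to 16.22. The markers HBA1, SLC4A1, GYPB, KLF1 and EPB42 were not detected or not matched. Of 10 detected neutrophil markers of 11 (CSF3R had no matched probe), 9 were higher and 1 lower, with a median of 0.90. CATHL4, a cathelicidin, was 1.78 higher, MPO, the myeloperoxidase, 1.32 and ELANE 0.91, each without overlap between the groups, as were 4.14% of all genes (exact permutation p = 0.0286 and limma adjusted p = 0.760 for each). With CATHL2, a further cathelicidin named after its values were seen, they were the 4 of 10 with an unadjusted limma p of 0.05 or less, and none passed after adjustment. The summed neutrophil signal was 13.10 to 14.69 in LN and 11.94 to 13.22 in HN. The other lists moved less. Macrophage markers had 1 of 8 detected higher and a median of -0.11, with summed signals of 17.30 to 17.94 in LN and 17.36 to 18.07 in HN. Endothelial markers had 5 of 7 higher and a median of 0.082, with 13.75 to 14.32 in LN and 13.49 to 14.02 in HN. Stellate cell markers had 1 of 7 higher and a median of -0.29, with 16.48 to 16.89 in LN and 16.39 to 17.51 in HN. Cholangiocyte markers had 3 of 4 higher and a median of 0.12, and lymphocyte markers 0 of 5 and a median of -0.14, with summed signals that overlapped between the groups. KRT7, a keratin named after its values were seen, was the 1 of 4 cholangiocyte markers with an unadjusted limma p of 0.05 or less, beside 6.05% of all genes. Its groups overlapped, with a log2 difference of 0.67 (limma adjusted p = 0.785, exact permutation p = 0.0571). In these lists MARCO, SOX9, CD79B and MS4A1 were not detected or not matched. The part of these cells in the values of the 10 genes was not tested.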

How the data were processed

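The authors hybridised Cy3-labelled liver RNA of 8 fetuses to 1-colour Agilent bovine arrays. They deposited the scanner output, with a background-subtracted intensity for each spot from Feature Extraction 11.0.1.1, and log2 values of 31068 probes, quantile normalized in GeneSpring according to the methods. That table holds all 38 probes used here. For the present values, control spots and the 16 probes with an outlier mark were dropped, replicate spots were averaged after log2 transformation, and quantile normalization was run over 43637 probes. Detection required a signal well above background on 4 or more arrays. Transcript accessions assigned 26740 probes to 12603 genes through a RefSeq table (assembly ARS-UCD2.0), used only for names and neighbours. The brightest detected probe stands for a gene, and every probe of the 10 genes is described. Groups were compared by limma 3.58.1 (R 4.3.3), 2-sided, with Benjamini-Hochberg adjustment across 33439 probes, and by a 2-sided exact permutation test over the 70 divisions of the 8 fetuses. The limma step was tested on simulated data with independent noise, to which shifts larger than any difference of the 10 genes were added. That test does not speak to differences of their size. The number of arrays limits the precision. The p-values set a group difference against the spread between these 8 fetuses, and do not account for a difference between the slides.

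The 10 genes, the 6 related lists and the 8 lists of cell markers were chosen with earlier results of these data known. Of each list at most 3 genes are named, those with the largest difference among genes whose groups do not overlap, and for AFP and ALB the 3 genes most correlated with each. Named outside this rule are AFM, HRG and KNG1 for their position, and SERPINA3-3, IGF2BP1, CATHL2 and KRT7 after their values were seen. The alternatives were 75th percentile scaling, no normalization, normexp with an offset of 50, the log2 table of the authors, no filter, a filter requiring all 8 arrays, a trended robust eBayes, array position as a block, the methods' t-test, the mean over a gene's probes, and each fetus left out. The dimmest probe of each gene was added after seeing the data.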

Additional observations from a re-analysis of the deposited data

Results flagged for a closer look

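In 2 of 90 groups of 4 fetuses, 1 fetus stood apart from the other 3 by Dixon's criterion, both among the 76 groups of the probes described above, where chance gives about 5% of groups. By the AHSG probe A_73_P177797, HN fetus L3 had a log2 signal of 17.69 and the other HN fetuses 18.11 to 18.18, which is the pattern of the wide AHSG probes. By the TF probe A_73_P290166, HN fetus L10 had 18.05 and the other HN fetuses all 17.93. Quantile normalization gives probes of equal rank equal values, so these 3 ties come from equal ranks and not from equal intensities.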

How the results depend on the processing

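In every one of 19 alternatives, 0 of the 10 genes passed an adjusted p of 0.05. The other filters, variance model, block and t-test leave the difference as it is by construction. Under the other alternatives AFP, AHSG, FETUB, RBP4 and A1BG kept their direction. The genes with differences near 0 did not. Without normalization between arrays, where the median over all genes was -0.10, the log2 difference was -0.067 for ALB, -0.042 for TF, -0.030 for TTR, -0.073 for GC and -0.053 for SERPINA1, and the median over the 10 genes -0.060. There 2 of the 10 genes were higher in LN, and 7 lay above the median of all genes. With normexp TF was -0.0028, and with the mean over probes ALB was -0.028 and TF -0.074. With the dimmest probe, chosen after seeing the data, ALB was -0.067, TF -0.18 and the median over the 10 genes -0.013. Leaving out each fetus in turn gave -0.0073 to 0.018 for ALB, -0.024 to 0.024 for TF, -0.034 to 0.027 for GC, 0.00025 to 0.023 for the median over the 10 genes and 0.16 to 0.62 for the ratio of AFP to ALB. The cause of these changes was not tested. The difference in the ratio stayed positive in 14 alternatives, up to 0.66. In the related lists 0 genes passed in 14 alternatives. No paired analysis by replicate was possible because the labels give the groups no shared replicate numbers. Array position as a block, which sets 1 LN beside 1 HN array, was run as an alternative.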
